A study of Mus musculus with 6 samples.

Results

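The genes described here are 38 genes of the mouse whose RNA marks leukocytes, the white blood cells, or carries their signals: pan-leukocyte surface and adhesion genes, subunits of the phagocyte oxidase, regulators of actin and of signalling, and genes of T cells. They were chosen by name, and each of the 38 was found once in the count table, among 43629 named gene models. They were compared between heart tissue of old male C57BL/6 mice, aged 22 months, and of young ones, aged 2 months, with 3 samples at each age (old 1 to 3 and young 1 to 3, called hearts here). All mice were on normal chow under a 12-h light cycle, and the labels name no treatment or engineered allele. The labels do not say whether the samples of an age come from separate animals, so p-values measure the spread between these samples only. The labels give heart tissue as the source, while their extraction text names NRVMs, a term they do not explain. Summed levels of 8 heart muscle marker genes lay between 43530 and 48230 CPM (read counts scaled to the size of the library) in old hearts and between 57270 and 63330 CPM in young hearts. Myh6 alone had 11610 to 14650 CPM in old hearts and 21390 to 24680 CPM in young hearts. Actc1 (log2 fold change of old over young −1.23, edgeR adjusted p = 0.00256) and Pln (−0.61, edgeR adjusted p = 0.0267) were also lower in old hearts. Tnnt2, Tnni3, Mb, Ttn and Ryr2 did not pass the test described below. The 8 genes thus did not change alike, and the difference of the sums is not taken as an amount of heart muscle, which was not tested.

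Leukocytes share a toolkit that other cells of the heart largely lack. The transmembrane phosphatase CD45 sets the threshold of their receptor signalling. Small adaptors with an immunoreceptor tyrosine-based activation motif (ITAM) link receptors to kinases of the Src and Syk families, integrins with the β2 chain hold the cells to the vessel wall, and a membrane oxidase makes superoxide for the killing of microbes. In the healthy heart most of these cells are resident macrophages, with fewer monocytes, dendritic cells, neutrophils and lymphocytes.

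All members that passed the test were higher in old hearts. Of the 38 genes, 35 had enough reads for the test, and 18 of these rose in old hearts, against a background of 8.72% of all 14413 genes tested. No tested member fell, against a background of 6.36%. In 11 of the 18 the rise was 2-fold or more, where 4.09% of all genes tested rose that far. Among the 18, Trbc1, Itgax, Lat and Ncf4 had enough reads for the test only with the help of the old hearts, which favours a rise. The median log2 fold change of old over young was 0.83 over the 35 tested members and 0.02 over all genes tested, and all 35 members had a value above 0, against 51.6% of all genes. The 3 old hearts lay above the 3 young hearts in 25 of the 35, as they did in 18.8% of all genes tested. The test was edgeR's quasi-likelihood F test on counts, with Benjamini-Hochberg adjustment over all 14413 genes at 0.05, and fold changes are given as log2 of old over young ± approximate SE. Reads counted to gene models, those without a name included, numbered 13673856 to 15583364 per library. In whole tissue, more cells of a type and more RNA per cell cannot be told apart. Leaving out a single heart changed the number of members that rose to 19 without old 1, 18 without old 2, 10 without old 3, 5 without young 1, 9 without young 2 and 5 without young 3. The share of all genes tested that rose moved in the same fits, to 20.1% without old 1, 6.35% without old 2, 4.06% without old 3, 2.39% without young 1, 2.36% without young 2 and 2.66% without young 3. The median log2 fold change of the tested members stayed between 0.73 and 0.91. Nothing in the labels gives a batch.

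**Figure D1:**
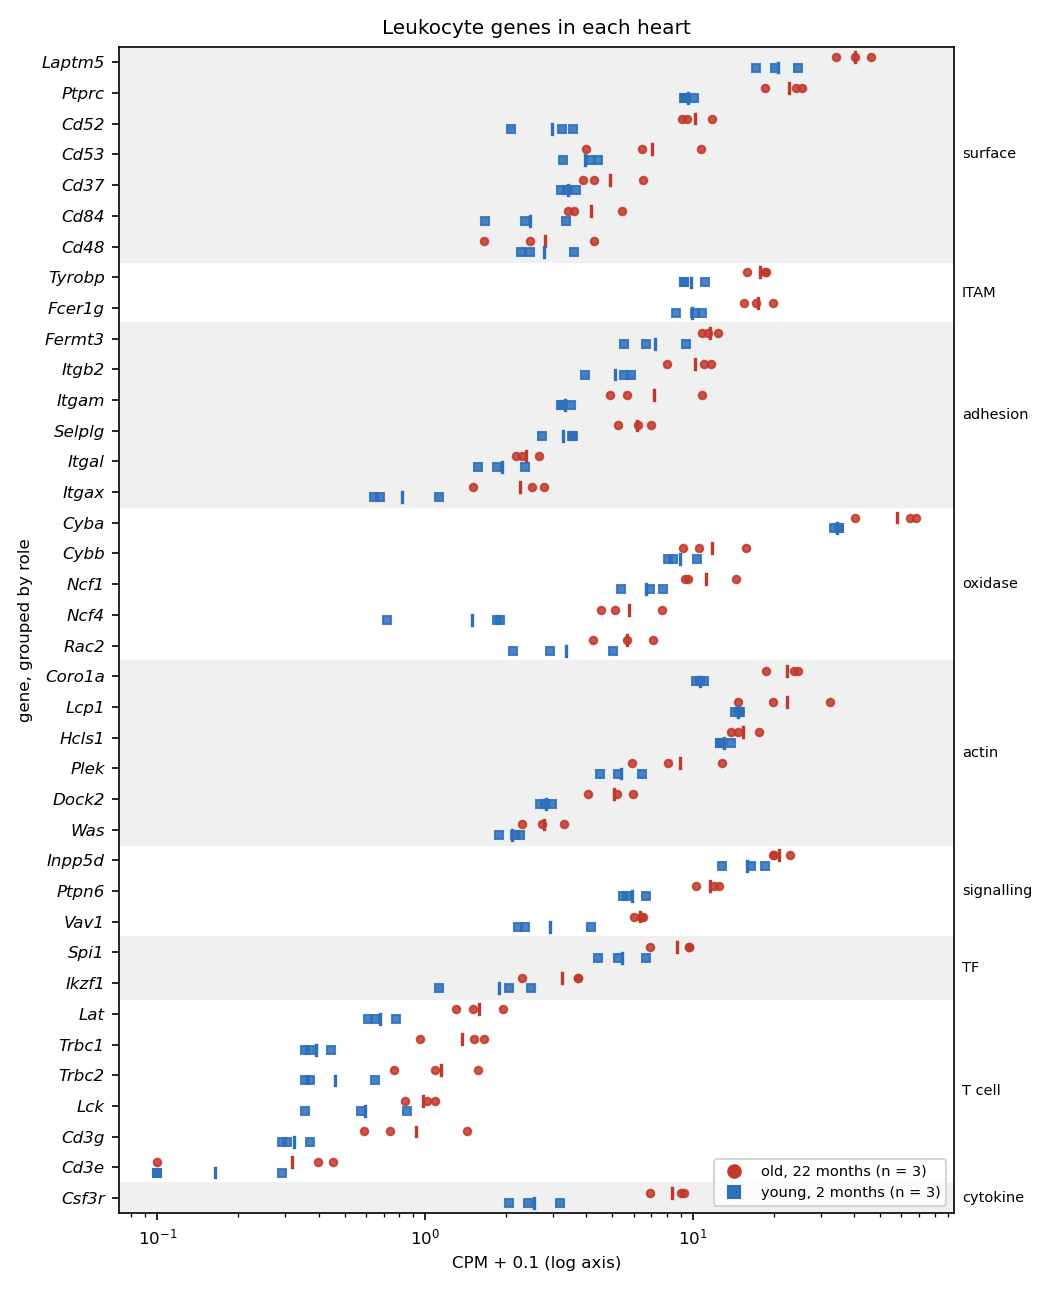
CPM plus 0.1 on a log axis for each of the 38 genes in each heart, grouped by role; circles are old hearts, squares young hearts, and vertical ticks their means (n = 3 each). For 25 of the 35 tested genes every circle lies to the right of every square; the 6 genes of T cells lie below 2 CPM.

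The smallest p-values among the members were those of 2 surface genes, Ptprc and Cd52. Ptprc, which encodes CD45, had 18.5, 25.4 and 24.2 CPM in old 1, 2 and 3, against 9.27, 9.14 and 9.96 CPM in young 1, 2 and 3. The lowest old heart thus lay clear of the highest young heart, and the mean was 22.7 ± 3.64 CPM in old hearts and 9.46 ± 0.442 CPM in young hearts (SD, n = 3 each). The log2 fold change of Ptprc was 1.26 ± 0.17 (edgeR adjusted p = 0.0028; ENSMUSG00000026395, chromosome 1, 138062861 to 138175708, minus strand, GRCm38). Cd52, a short glycoprotein anchored in the leukocyte membrane, had 9.42, 8.99 and 11.7 CPM in the old hearts, against 1.99, 3.46 and 3.15 CPM in the young hearts, and rose by 1.80 ± 0.25 (edgeR adjusted p = 0.00319); exons of Crybg2 on the opposite strand cover 14.5% of its exon length, and whether counting used strand is not stated. Laptm5, a lysosomal membrane protein that lowers antigen receptors on the cell surface, had 34.3, 40.4 and 46 CPM in old hearts and 17.1, 24.7 and 20.1 CPM in young hearts, and rose by 0.96 ± 0.17 (edgeR adjusted p = 0.00849). These 3 genes kept the ages apart in every heart. The other 4 surface genes did not pass. The tetraspanin gene Cd53 had 10.6, 3.9 and 6.37 CPM in old hearts and 4.05, 3.18 and 4.31 CPM in young hearts, with old 2 inside the young range (0.86 ± 0.34, edgeR adjusted p = 0.116). Its relative Cd37 had a log2 fold change of 0.53 ± 0.26 (edgeR adjusted p = 0.19). Cd84 and Cd48 belong to the signalling lymphocytic activation molecule (SLAM) family, receptors by which leukocytes contact each other. Cd84 had 5.32, 3.33 and 3.48 CPM in old hearts and 1.58, 3.25 and 2.25 CPM in young hearts, with the ages only just apart (0.78 ± 0.33, edgeR adjusted p = 0.136). Cd48 had 4.16, 1.56 and 2.37 CPM in the old hearts, against 3.5, 2.37 and 2.19 CPM in the young hearts; old 1 was the highest of all 6 hearts and old 2 the lowest, with a log2 fold change of 0.02 ± 0.38 that turned negative under 8 other settings. Without young 1 or young 3 the call of Laptm5 ended (edgeR adjusted p = 0.0525 and 0.0514), and without old 2 Cd53 passed (0.0341).

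**Figure D2:**
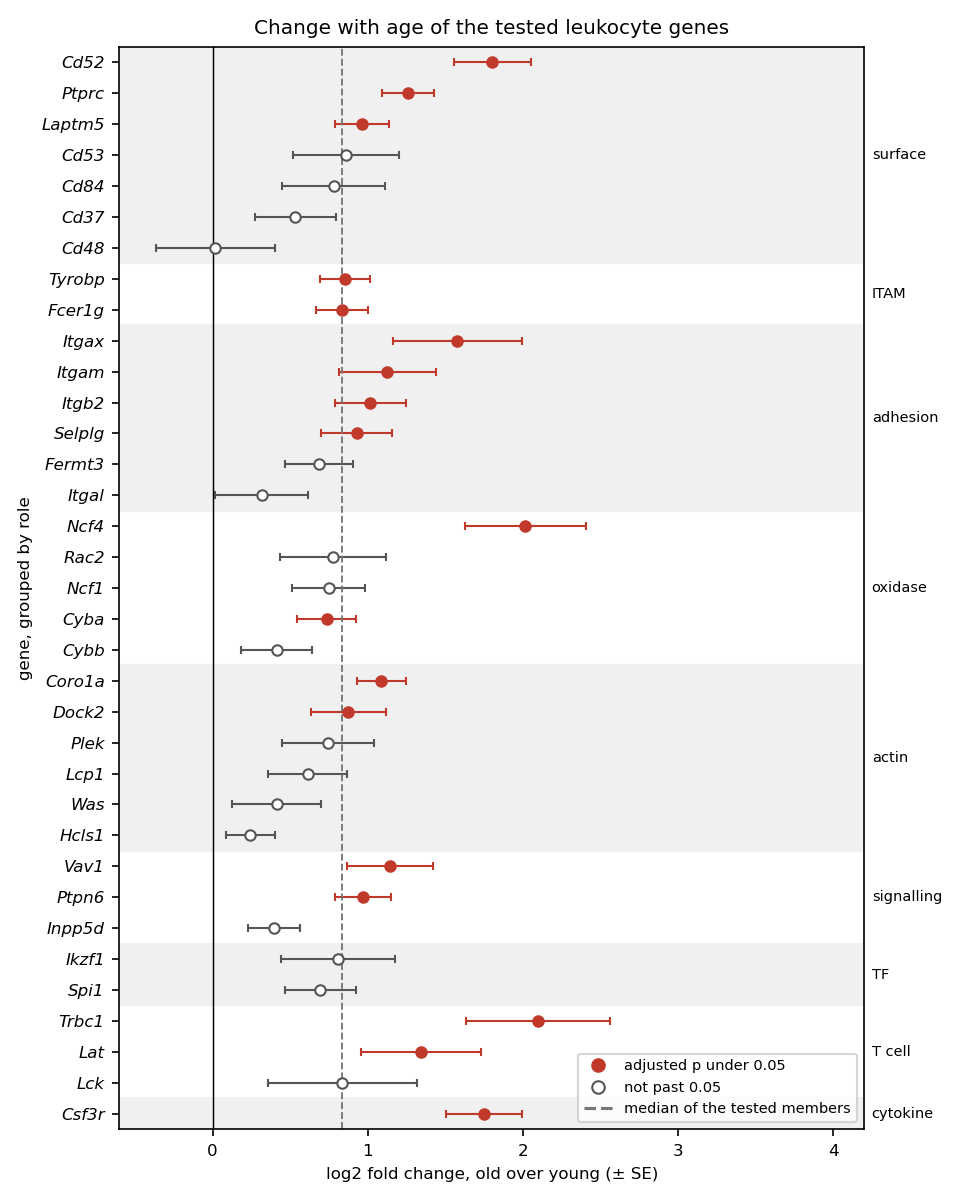
Log2 fold change of old over young, with its SE, for the 35 tested genes, grouped by role; filled red points have an edgeR adjusted p under 0.05, and the dashed line is the median of the 35, 0.83. All points lie above 0, from 0.02 for Cd48 to 2.10 for Trbc1.

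Both ITAM adaptors rose. Tyrobp, also called DAP12, pairs with TREM and other receptors of myeloid and NK cells. It had 18.4, 18.7 and 15.8 CPM in old hearts and 9.2, 11 and 9.13 CPM in young hearts, and its log2 fold change was 0.85 ± 0.16 (edgeR adjusted p = 0.0098). Fcer1g, the γ chain shared by Fc receptors, had 19.9, 15.4 and 17.1 CPM in old hearts, against 8.58, 10.7 and 10.1 CPM in young hearts, with a log2 fold change of 0.83 ± 0.17 (edgeR adjusted p = 0.0133). The ages did not overlap for either gene. Among 14 tested genes of 20 for ITAM-linked receptors and the kinases behind them, 6 rose and none fell, with a median log2 fold change of 0.76. Fcgr1, the high-affinity receptor for IgG that signals through the product of Fcer1g, averaged 9.01 ± 3.89 CPM in old hearts and 2.12 ± 0.123 CPM in young hearts (SD, n = 3 each), a log2 fold change of 2.08 ± 0.32 (edgeR adjusted p = 0.00485). Syk, the kinase that docks on phosphorylated ITAMs and is also made outside leukocytes, averaged 131 ± 26.2 CPM in old hearts and 57.7 ± 8.77 CPM in young hearts (1.19 ± 0.18, edgeR adjusted p = 0.0049). The calls of the adaptors ended without young 1 or young 3 (edgeR adjusted p = 0.0605 and 0.0644 for Tyrobp, and 0.0754 and 0.0659 for Fcer1g), and that of Fcer1g also without young 2 (0.0541).

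Adhesion genes rose in 4 of 6 cases. Itgb2, the β2 chain (CD18) common to the leukocyte integrins, had 10.9, 11.5 and 7.93 CPM in old hearts and 5.42, 5.76 and 3.86 CPM in young hearts (1.02 ± 0.23, edgeR adjusted p = 0.02). Its partner Itgam (CD11b), an α chain of monocytes, macrophages and neutrophils, had 10.7, 4.82 and 5.56 CPM in old hearts, against 3.16, 3.12 and 3.41 CPM in young hearts (1.13 ± 0.31, edgeR adjusted p = 0.0403). Old 1 stood far above old 2 and old 3 for Itgam, although all 3 lay above the young hearts; 68.7% of the exon length of Itgam is shared with Gm49368 on the same strand, which has no row in the count table. Itgax (CD11c), an α chain of dendritic cells and of some macrophages, had 1.41, 2.41 and 2.67 CPM in old hearts and 1.03, 0.542 and 0.579 CPM in young hearts (1.58 ± 0.41, edgeR adjusted p = 0.0335). Here the order of the old hearts was turned round, with old 1 the lowest. Itgax had 15, 8 and 9 reads in young 1, 2 and 3, and passed the filter on counts only with the help of the old hearts. Selplg (PSGL-1), the ligand by which leukocytes roll on selectins, had 6.85, 5.17 and 6.15 CPM in old hearts and 3.43, 2.64 and 3.47 CPM in young hearts (0.93 ± 0.23, edgeR adjusted p = 0.0265). Fermt3 (kindlin-3), which switches integrins to their binding form, had 10.7, 12.3 and 11.3 CPM in old hearts and 5.42, 9.35 and 6.56 CPM in young hearts, and missed the threshold (0.68 ± 0.22, edgeR adjusted p = 0.064). Itgal (CD11a), the α chain of LFA-1 on lymphocytes and other leukocytes, had 2.57, 2.2 and 2.08 CPM in old hearts, against 2.27, 1.76 and 1.48 CPM in young hearts, and these overlapped (0.32 ± 0.30, edgeR adjusted p = 0.493).

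The adhesion calls ended when any 1 of the young hearts was left out, while the fold changes stayed near those of all hearts. With young 1, 2 or 3 left out in turn, the log2 fold change was 1.07, 1.12 and 0.83 for Itgb2 and 1.11, 1.10 and 1.15 for Itgam. It was 1.92, 1.41 and 1.42 for Itgax and 0.98, 0.81 and 0.97 for Selplg in the same fits (edgeR adjusted p = 0.0612 to 0.14 over the 4 genes). The calls of Itgam (0.0708), Itgax (0.12) and Selplg (0.0813) also ended without old 3, and those of Itgb2 (0.0503) and Itgax (0.0819) without old 2. Itgam kept its call without old 1, at a log2 fold change of 0.68 (edgeR adjusted p = 0.0432). It lost the call in a limma-voom fit (adjusted p = 0.067) and on the deposited FPKM with pseudocounts of 0.1 and 1 (limma adjusted p = 0.111 and 0.124). In a fit blocked on replicate number, Itgax missed the threshold (edgeR adjusted p = 0.0626). Fermt3 passed without old 1 (0.0282), under DESeq2 (0.0415) and when low counts were left unfiltered (0.0435, all adjusted p).

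The mix of α chains was set out per length of exon, since counts of different genes cannot be compared otherwise. Of the length-scaled counts of Itgal, Itgam and Itgax together, Itgal took 13.9%, 18.6% and 15.97% in old 1, 2 and 3, against 29.0%, 26.8% and 22.0% in young 1, 2 and 3. The share of Itgal was lower in each old heart than in any young heart, with a mean difference of −9.77 percentage points (exact permutation test, two-sided, p = 0.1, which no 3 against 3 design can go below; 0.3 adjusted over the 3 chains). Itgam took 75.7%, 53.4% and 55.9% in the old hearts and 52.9%, 62.0% and 66.2% in the young hearts (exact p = 0.8), and Itgax 10.4%, 27.9% and 28.1% in the old hearts, against 18.1%, 11.3% and 11.8% in the young hearts (exact p = 0.4). Old 1 differed from the other 2 old hearts in both of these shares. Among 9 tested genes of 10 for other leukocyte integrins and their activators, 1 rose, Itgb7, the β7 chain of lymphocytes (1.48 ± 0.35, edgeR adjusted p = 0.0242), and none fell; Rassf5 had 0.55 ± 0.27 (edgeR adjusted p = 0.183). Of 9 tested genes of 17 for vascular ligands and counter-receptors, 3 rose and 3 fell. Vcam1, an endothelial ligand of α4 integrins, averaged 24.2 ± 4.72 CPM in old hearts and 11.8 ± 0.232 CPM in young hearts (1.04 ± 0.17, edgeR adjusted p = 0.00582). Jam2, a junction protein of endothelium, averaged 112 ± 3.87 CPM in old hearts and 171 ± 3.85 CPM in young hearts (−0.61 ± 0.12, edgeR adjusted p = 0.0115).

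Of 5 subunits of the phagocyte NADPH oxidase, 2 rose. Ncf4 (p40phox), a cytosolic subunit, had 5.02, 7.58 and 4.45 CPM in old hearts and 0.618, 1.76 and 1.8 CPM in young hearts, a log2 fold change of 2.02 ± 0.39 (edgeR adjusted p = 0.0117). Cyba (p22phox), the membrane chain that also serves oxidases of cells other than leukocytes, had 40.3, 67.8 and 64.5 CPM in old hearts, against 34.9, 35.2 and 33.6 CPM in young hearts (0.73 ± 0.19, edgeR adjusted p = 0.0311). Old 1 was only slightly above the young hearts for Cyba, and old 2 and old 3 were far above. Cybb (gp91phox), the catalytic chain, had 15.7, 9.07 and 10.4 CPM in old hearts and 7.96, 10.2 and 8.29 CPM in young hearts, with old 2 inside the young range, and did not pass (0.41 ± 0.23, edgeR adjusted p = 0.244). Ncf1 (p47phox), the organiser subunit, had 14.4, 9.28 and 9.49 CPM in old hearts and 5.29, 6.84 and 7.65 CPM in young hearts, which did not overlap, yet it missed the threshold (0.75 ± 0.23, edgeR adjusted p = 0.0597). The GTPase Rac2 had 6.98, 5.59 and 4.15 CPM in old hearts and 4.94, 2.03 and 2.83 CPM in young hearts (0.78 ± 0.34, edgeR adjusted p = 0.149). Whether the subunits differed from each other in their change was not tested. Outside the list, Rac1, a widely made GTPase that serves such oxidases, averaged 115 ± 6.88 CPM in old hearts and 158 ± 11.5 CPM in young hearts, and was lower in old hearts (−0.47 ± 0.13, edgeR adjusted p = 0.0372). The call of Cyba held without old 1 (edgeR adjusted p = 0.000139) and ended without each of the other 5 hearts, old 2, old 3, young 1, young 2 and young 3 (0.0823 to 0.126), and on the FPKM with pseudocounts of 0.1 and 1 (limma adjusted p = 0.0625 and 0.0639). Ncf1, of which Gtf2ird2 on the opposite strand covers 11.1%, passed under DESeq2 (0.0323) and when low counts were left unfiltered (adjusted p = 0.0303).

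Of 6 regulators of leukocyte actin, 2 rose. Coro1a (coronin 1A), which remodels actin in leukocytes, had 24.7, 18.6 and 23.8 CPM in old hearts, against 10.5, 10.9 and 10.2 CPM in young hearts, and rose by 1.09 ± 0.16 (edgeR adjusted p = 0.00379). Dock2, the Rac exchange factor of migrating lymphocytes, had 5.88, 3.97 and 5.11 CPM in old hearts and 2.88, 2.57 and 2.7 CPM in young hearts (0.88 ± 0.24, edgeR adjusted p = 0.0397). Neither gene overlapped between the ages. Lcp1 (L-plastin), which bundles actin filaments, had 32.4, 14.7 and 19.9 CPM in old hearts, against 14.3, 14.7 and 14.9 CPM in young hearts. For Lcp1 old 1 was far above the young hearts and old 3 less so, while old 2 lay among them (0.61 ± 0.26, edgeR adjusted p = 0.131). Plek (pleckstrin), a substrate of protein kinase C, showed the same order of old hearts, with 12.8, 5.81 and 8 CPM in old hearts and 5.15, 4.4 and 6.36 CPM in young hearts (0.74 ± 0.29, edgeR adjusted p = 0.115). Was, the activator of branched actin that is mutated in Wiskott-Aldrich syndrome (0.41 ± 0.28, edgeR adjusted p = 0.342), and Hcls1, a cortactin-like protein (0.24 ± 0.16, edgeR adjusted p = 0.308), did not pass. The call of Dock2 ended without old 3, young 1, young 2 or young 3 (edgeR adjusted p = 0.108 to 0.144) and when blocked on replicate number (0.0643). Without old 2, Lcp1 (0.039) and Plek (0.0494) passed.

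Enzymes that restrain or pass on receptor signals rose in 2 of 3 cases. Ptpn6 (SHP-1), the phosphatase recruited by inhibitory receptors, had 11.9, 10.1 and 12.4 CPM in old hearts and 5.56, 6.57 and 5.4 CPM in young hearts (0.97 ± 0.18, edgeR adjusted p = 0.00967). Vav1, the exchange factor for Rac downstream of antigen receptors, had 6.43, 5.95 and 6.3 CPM in old hearts and 2.13, 4.07 and 2.25 CPM in young hearts (1.14 ± 0.28, edgeR adjusted p = 0.026). The old hearts were close to each other for Vav1, and young 2 was the highest young heart for both genes. Inpp5d (SHIP-1), the lipid phosphatase that opposes PI3-kinase, had 19.8, 22.9 and 20 CPM in old hearts and 16.3, 18.6 and 12.7 CPM in young hearts; the ages did not overlap, but the difference was small and missed the threshold (0.40 ± 0.17, edgeR adjusted p = 0.138). Inhibitory receptors and phosphatases outside the list rose in 8 of 17 tested genes, of 20, and fell in 1, with a median log2 fold change of 0.71. Lilr4b, of the gp49 receptor pair whose copies are so alike that reads may be split between them, averaged 17.8 ± 4.12 CPM in old hearts and 5.97 ± 0.827 CPM in young hearts (1.58 ± 0.21, edgeR adjusted p = 0.00299). Cd72, an inhibitory receptor best known on B cells, averaged 5.35 ± 1.64 CPM in old hearts and 1.18 ± 0.233 CPM in young hearts (2.18 ± 0.33, edgeR adjusted p = 0.00464). The calls of Ptpn6 (0.0565 and 0.0627) and Vav1 (0.108 and 0.114) ended without young 1 and without young 3, and that of Vav1 also without old 3 (0.0839, all edgeR adjusted p).

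Neither of the 2 transcription factors passed. Spi1 (PU.1), which directs myeloid development, had 9.61, 6.8 and 9.56 CPM in old hearts and 4.32, 6.57 and 5.14 CPM in young hearts (0.69 ± 0.23, edgeR adjusted p = 0.0696), and Ikzf1 (Ikaros), a factor of lymphoid development, had 3.61, 2.2 and 3.63 CPM in old hearts and 1.03, 1.97 and 2.38 CPM in young hearts (0.81 ± 0.37, edgeR adjusted p = 0.161). For Spi1 the ages did not overlap, and it passed without old 2 (0.0475); for Ikzf1, old 2 lay below young 3. Of 14 tested blood cell transcription factors of 20 outside the list, 1 rose, Irf8, a factor of monocytes and dendritic cells (0.70 ± 0.17, edgeR adjusted p = 0.0241), and none fell. Runx3 had 1.05 ± 0.46 (edgeR adjusted p = 0.151). The median of these 14 was 0.07, near that of all genes.

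Genes of T cells had few reads. The 6 T cell members together drew 84, 79 and 87 reads in old 1, 2 and 3, against 35, 29 and 26 reads in young 1, 2 and 3. Trbc1, a constant segment of the T cell receptor β chain, had 14, 20 and 21 reads in old hearts and 5, 4 and 4 reads in young hearts, or 0.857, 1.42 and 1.56 CPM, against 0.343, 0.271 and 0.257 CPM. Trbc1 passed the filter on counts only through the old hearts, and under a filter of 1 CPM in 3 libraries it was not tested. It rose by 2.10 ± 0.46 (edgeR adjusted p = 0.0183; ENSMUSG00000076490, chromosome 6, 41538218 to 41539881, plus strand, GRCm38). Lat, the scaffold phosphorylated below the T cell receptor and also present in mast cells and platelets, had 23, 17 and 25 reads in old hearts and 8, 10 and 8 reads in young hearts (1.34 ± 0.39, edgeR adjusted p = 0.0445). Lck, the Src-family kinase bound to CD4 and CD8, had 15, 14 and 10 reads in old hearts and 11, 7 and 4 reads in young hearts, with young 1 inside the old range, and did not pass (0.83 ± 0.48, edgeR adjusted p = 0.258). Lat and Lck too passed the filter on counts only with the help of the old hearts. The other 3 T cell members had too few reads for the test. Trbc2, the companion constant segment, had 24, 14 and 9 reads in old hearts and 8, 4 and 4 reads in young hearts, and the CD3 chain gene Cd3g had 8, 9 and 18 reads in old hearts and 3, 4 and 3 reads in young hearts; neither overlapped between the ages. Cd3e had 0, 5 and 4 reads in old hearts and 0, 0 and 3 reads in young hearts, so that only old 2 and old 3 were above the limit that a count of 0 allows, 3 reads. When low counts were left unfiltered these 3 did not pass (edgeR adjusted p = 0.098 for Trbc2, 0.0912 for Cd3g and 0.519 for Cd3e).

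The constant segments of the β chain are near-identical copies, so reads may be split between them by the counting. Trbc1 took 36.8%, 58.8% and 70.0% of the reads of both in old 1, 2 and 3, with 95% Wilson intervals of 23.4 to 52.7%, 42.2 to 73.6% and 52.1 to 83.3%. In young 1, 2 and 3 it took 5 of 13, 4 of 8 and 4 of 8 reads, with intervals of 17.7 to 64.5%, 21.5 to 78.5% and 21.5 to 78.5%. These intervals cover counting error only. The shares averaged 55.2% ± 16.9 in old hearts and 46.2% ± 6.66 in young hearts and overlapped (SD, n = 3 each; two-sided exact permutation p = 0.5).

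Of 8 tested genes of 18 for other T cell proteins, 2 rose and 1 fell, with a median log2 fold change of 0.55. Il7r, the interleukin-7 receptor chain of lymphocytes, averaged 2.02 ± 0.689 CPM in old hearts and 0.222 ± 0.192 CPM in young hearts (3.15 ± 0.65, edgeR adjusted p = 0.0141). Il7r and Zap70, the 2 that rose, both passed the filter on counts only through the old hearts, so their direction was largely set by the filter. Cd247, the ζ chain of the T cell receptor complex, averaged 0.848 ± 0.299 CPM in old hearts and 2.3 ± 0.737 CPM in young hearts, which is lower in old hearts (−1.42 ± 0.40, edgeR adjusted p = 0.0406). Of 12 defining T cell markers, 4 could be tested, none rose and 1, Cd247, fell. The summed level of the 12 was 5.78 to 7.01 CPM in old hearts and 5.28 to 7.01 CPM in young hearts. Cd247 itself took 1.16, 0.567 and 0.815 CPM of these sums in old 1, 2 and 3. In young 1, 2 and 3 it took 1.92, 1.83 and 3.15 CPM. The overlap of the sums thus does not describe the other markers. The call of Trbc1 ended without old 3 or young 1, 2 or 3 (edgeR adjusted p = 0.0716 to 0.0948). That of Lat ended without old 2, old 3 or young 1, 2 or 3 (0.0592 to 0.173), under DESeq2 (0.0683) and voom (0.0552), when low counts were left unfiltered (0.0682) and when blocked on replicate number (0.091, all adjusted p).

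Csf3r encodes the G-CSF receptor, found on neutrophils and monocytes. It had 6.79, 9.14 and 8.89 CPM in old hearts, against 3.09, 1.97 and 2.31 CPM in young hearts. All old hearts were clear of all young hearts, and it rose by 1.75 ± 0.24 (edgeR adjusted p = 0.00339). Of 13 neutrophil markers, 3 could be tested, S100a8, S100a9 and Mmp9, and all 3 rose. In young 1, 2 and 3, S100a8 had 4, 8 and 3 reads and Mmp9 7, 4 and 5 reads. These 2 genes passed the filter on counts only through the old hearts, so their direction was largely set by the filter. The defining genes Ly6g, Camp, Elane and Stfa1 had no read in any heart. The summed level of the 13 was 4.82 to 14.3 CPM in old hearts and 1.49 to 2.20 CPM in young hearts. Their part in the rise of Csf3r was not tested.

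Together with Ptprc, Cd52, Coro1a and Ncf4, Csf3r made up the 5 members whose call held in each of the 6 fits without 1 heart and in each of the 9 other settings. The other 13 calls ended in at least 1 of those settings.

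**Figure D3:**
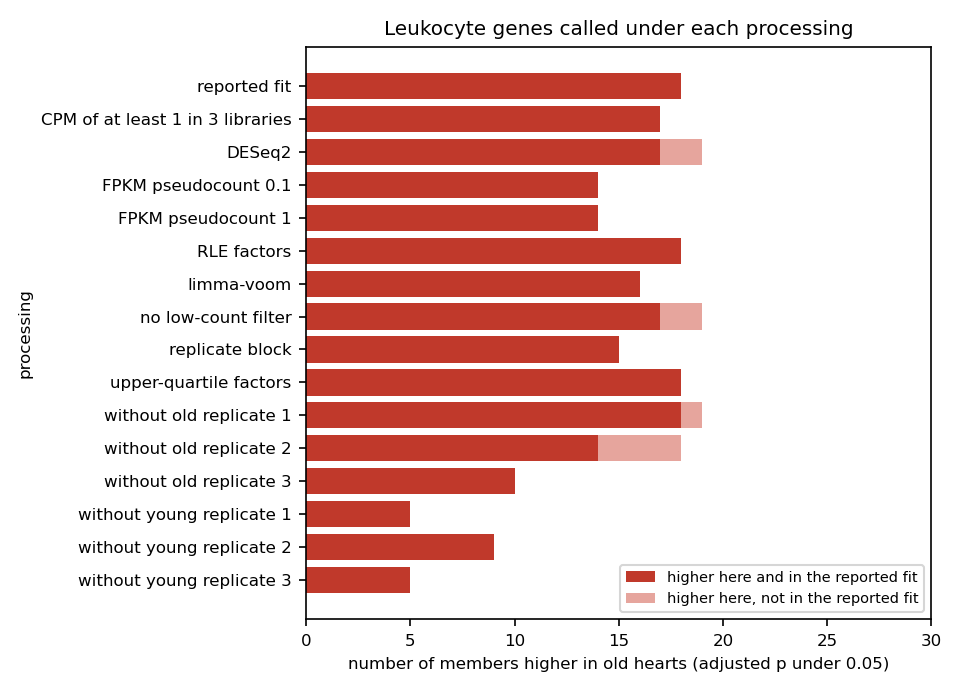
Number of the 38 genes called higher in old hearts (edgeR adjusted p under 0.05, or that of the test named) under each processing; red bars count genes also called in the reported fit, pale bars genes called only there. The reported fit called 18, the fits without 1 young heart 5 to 9, and those without 1 old heart 10 to 19.

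The old hearts differed among themselves, and not in the same order for every gene. Old 1 was above all young hearts in 35 of the 35 tested members, old 2 in 27 and old 3 in 31. How often each old heart was above all young hearts over all genes was not counted. The order of these counts is thus not shown to be particular to the members. Among the old hearts, old 1 was the highest in 18 of the 35, against 40.4% of all genes tested. This held in 6 of the 18 members that rose and in 12 of the 17 that did not pass. A single heart that stands out widens the spread and raises p, so this split may follow in part from the test, which was not tested. Old 1 exceeded the mean of old 2 and old 3 (of log2 CPM) by at least 1.5-fold in 9 members, Cd48, Cd53, Itgam, Lcp1, Plek, Cd37, Cybb, Cd84 and Ncf1, by 0.62 to 1.11 on the log2 scale. The opposite was found in 3 members, Itgax (−0.84), Trbc1 (−0.79) and Cyba (−0.71). The shares of all genes with such differences were not counted either. The mean log2 CPM of the 35 was 3.00, 2.74 and 2.87 in old 1, 2 and 3, against 1.93, 2.03 and 1.93 in young 1, 2 and 3. Summed levels of 17 macrophage and monocyte markers, of which 6 rose and none fell, were likewise highest in old 1, at 913 CPM, with 570 CPM in old 2 and 603 CPM in old 3, against 393 to 500 CPM in young hearts. Lyz2, which did not pass, was the largest part of each sum, with 345, 179 and 145 CPM in old 1, 2 and 3. Of the 6 that rose, C1qb, C1qc and Ccr2 were highest in old 1, and C1qa, Fcgr1 and Ly6c2 in old 3. None of these 17 was at 0 in all hearts, and their part in the order of the old hearts was not tested.

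**Figure D4:**
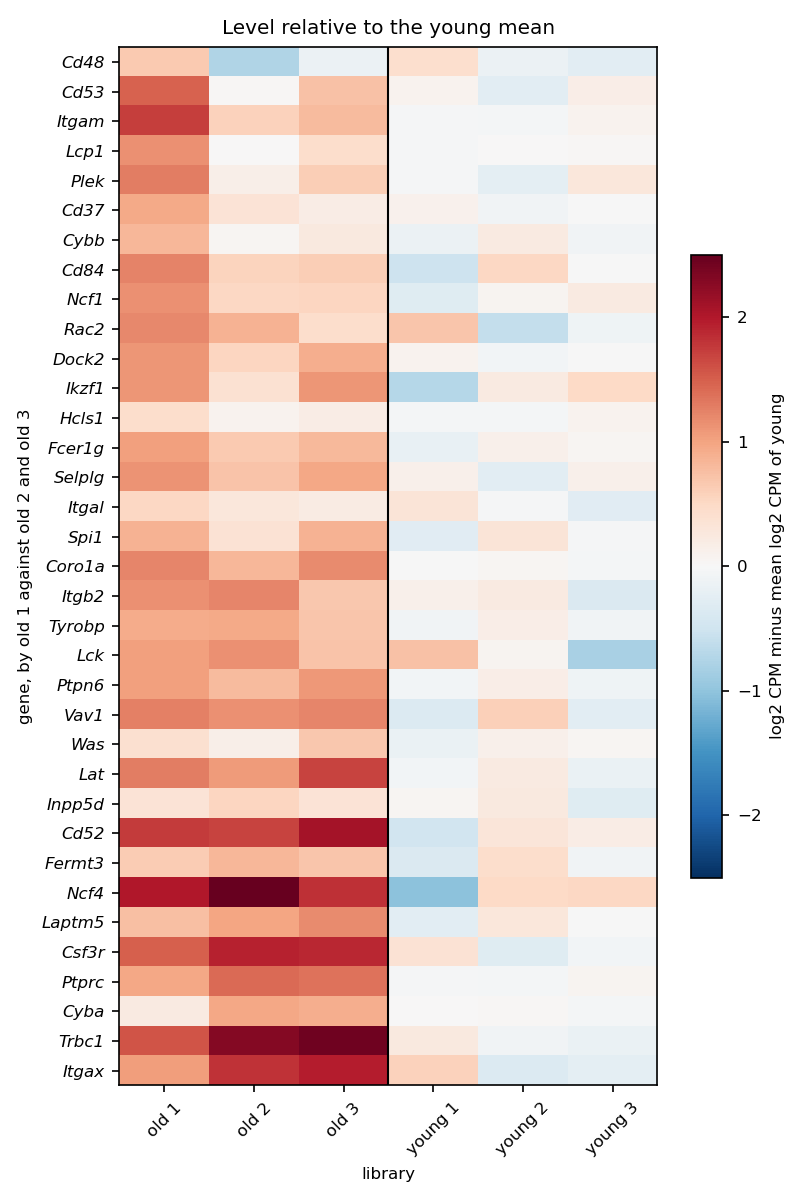
Log2 CPM of the 35 tested genes in each heart minus the mean of the 3 young hearts, with old hearts to the left of the line and genes sorted by old 1 against old 2 and old 3. At the top, Cd48, Cd53, Itgam and Lcp1 are highest in old 1; at the foot, Itgax, Trbc1 and Cyba are highest in old 2 or old 3.

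Ratios of the members to Ptprc, taken heart by heart, overlapped between the ages in most cases. Ptprc was taken as the divisor after its values were seen, because CD45 is carried by nearly all leukocytes. Among the 34 other tested members, the ratio lay below all young hearts in the 3 old hearts for 6, Cyba, Hcls1, Inpp5d, Was, Itgal and Fermt3, against 85.2% of all other genes tested; a gene that keeps its level falls in this ratio, because Ptprc rose. It lay above all young hearts for 2, Trbc1 and Csf3r, against 1.12% of all genes. Of these, Trbc1 passed the filter on counts only through the old hearts. The mean log2 ratio of Csf3r to Ptprc was −1.45 in old hearts and −1.97 in young hearts, and that of Itgal was −3.30 in old hearts and −2.38 in young hearts. The other 26 overlapped between the ages.

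Per length, the 4 highest members had the same order at both ages. The authors' table of length-scaled fragment levels (FPKM), in which each gene reaches 1 FPKM in at least 1 heart, listed 31 of the 38. Cyba was the highest at 72.8 ± 19.5 FPKM in old hearts and 43.8 ± 1.34 FPKM in young hearts, followed by Tyrobp at 29.9 ± 2.75 FPKM in old hearts and 16.6 ± 1.83 FPKM in young hearts (SD, n = 3 each). Fcer1g came next with 19.1 ± 2.33 FPKM in old hearts and 10.8 ± 1.19 FPKM in young hearts, and Laptm5 after it with 10.2 ± 1.53 FPKM in old hearts and 5.23 ± 0.972 FPKM in young hearts. In each age group these levels of Tyrobp, Fcer1g and Laptm5 were apart by more than their SDs. Cd52 ranked 5 of 31 in old hearts and 8 in young hearts, Ncf4 14 in old hearts and 24 in young hearts, and Cd48 19 in old hearts and 9 in young hearts. The lowest in both was Cd3g, at 0.735 ± 0.405 FPKM in old hearts and 0.201 ± 0.0383 FPKM in young hearts. Differences in log2(FPKM + 1) are smaller than those in counts for such low genes: Ptprc gave 0.54, Csf3r 0.95, Ncf4 1.15, Vav1 0.61, Selplg 0.57, Itgam 0.44, Trbc1 0.92 and Lat 0.56.

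Promoter sequence of GRCm38.p6 from RefSeq, 250 bases before to 50 after an annotated start, was at hand for 28 of the 38 genes, in 33 windows. Factors of the ETS family, PU.1 among them, bind DNA around GGAA, and AGGAAG or its reverse complement was found in 23 of the 33 windows (69.7%), against 35.4% of all 32851 windows. It was in 10 of the 12 members with a window that rose and in 10 of the 14 that were tested and did not pass. The longer PU.1 motif GAGGAAGT, each match of which holds AGGAAG too, was in 4 member windows, those of Cd53, Vav1, Inpp5d and Cd37, against 3.2% of all windows. The interferon-response motif, GAAA, any 2 bases and GAAA again, was in 2 (Cybb and Ncf1), against 3.44%, and the RUNX motif TGTGGTT in 3 (Cybb, Was and Lck), against 5.27%, with both strands searched. These are matches of letters, not measured binding. The 150 bases before the start are shown for 3 members that rose and 2 that did not pass, taken from those that hold AGGAAG or its complement, in capitals, and touch no annotated exon of the gene; each is written 5′ to 3′ on the strand of the gene.
Itgam (rose; chr7:128062490-128062639, plus strand): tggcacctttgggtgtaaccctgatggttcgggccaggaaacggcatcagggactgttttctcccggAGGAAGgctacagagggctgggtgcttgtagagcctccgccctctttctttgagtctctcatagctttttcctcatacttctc
Vav1 (rose; chr17:57278950-57279099, plus strand): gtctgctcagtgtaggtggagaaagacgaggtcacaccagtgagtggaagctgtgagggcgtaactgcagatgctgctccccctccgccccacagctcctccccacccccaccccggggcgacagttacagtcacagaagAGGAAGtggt
Dock2 (rose; chr11:34783906-34784055, minus strand): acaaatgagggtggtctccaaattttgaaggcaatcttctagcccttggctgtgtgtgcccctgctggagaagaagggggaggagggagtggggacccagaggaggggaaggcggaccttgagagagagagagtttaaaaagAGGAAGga
Inpp5d (did not pass; chr1:87620162-87620311, plus strand): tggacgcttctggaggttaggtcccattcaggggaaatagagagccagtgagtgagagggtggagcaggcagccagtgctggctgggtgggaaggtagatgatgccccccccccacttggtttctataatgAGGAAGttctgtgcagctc
Lck (did not pass; chr4:129573642-129573791, minus strand): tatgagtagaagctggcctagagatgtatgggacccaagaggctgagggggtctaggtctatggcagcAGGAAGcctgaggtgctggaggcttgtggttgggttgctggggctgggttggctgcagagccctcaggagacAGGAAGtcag
In Vav1 and Inpp5d the match lies close to the start and is part of the longer PU.1 motif, in Dock2 it ends 2 bases before the start and a further one spans the start, and Lck holds a pair of matches.

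Markers of other cell types were counted in the same fit. Endothelial markers fell in 3 of 7 and heart muscle markers in 3 of 8, with none higher in either list, and fibroblast markers fell in 1 of 7. B and plasma cell markers rose in 1 of 7 tested, with summed levels of 13.0 to 16.4 CPM in old hearts and 14.8 to 16.7 CPM in young hearts. The 7 platelet and megakaryocyte markers summed to 25.9 to 33.9 CPM in old hearts and 16.1 to 16.5 CPM in young hearts. Of 4 tested, only Pf4 rose, and Ppbp, Itga2b and Gp1bb did not pass. Pf4 was the largest part of each sum, with 15.6 to 19.2 CPM in old hearts and 8.44 to 10.7 CPM in young hearts. The 7 erythroid markers summed to 455, 467 and 1215 CPM in old 1, 2 and 3, against 927 to 980 CPM in young hearts. Mast cell markers fell in 1 of 5 tested and rose in none, with sums of 10.8 to 19.4 CPM in old hearts and 15.0 to 21.3 CPM in young hearts. None of 3 tested dendritic cell markers passed, and their list summed to 40.3 to 98.5 CPM in old hearts and 44.2 to 49.2 CPM in young hearts. Most of that sum was 1 gene, Zbtb46, with 27.8, 84.6 and 66.9 CPM in old 1, 2 and 3, against 34.0, 34.3 and 40.3 CPM in young 1, 2 and 3. The 1 tested NK cell marker did not pass, while the list of 10 summed to 2.90 to 5.51 CPM in old hearts and 1.09 to 2.61 CPM in young hearts. Of the sums in old 1, 2 and 3, Gzma took 1.78, 0.496 and 1.11 CPM and Gzmb 0.979, 0.567 and 0.964 CPM. Ncr1 and Klrb1c overlapped between the ages, and Prf1 was higher in each young heart than in any old heart. The difference of these sums thus does not describe every NK cell marker. Of 1 lung and 2 thymocyte markers tested, none passed. The lung genes Sftpb, Sftpa1 and Sftpd and the thymus genes Rag1 and Rag2 had no read in any heart. The part of these cell types in the changes of the leukocyte genes was not tested.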

How the data were processed

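RNA of 6 heart samples was measured by sequencing. HISAT2, featureCounts and Subread are the tools, and GRCm38.p6 the build, that the submitters' processing notes name. Tool versions, the annotation and the handling of strand and of multi-mapped reads are not given in the sources at hand. The deposited counts are whole reads per gene, and the deposited FPKM values are the authors' own scaling by gene length and depth. Of 44200 gene models, 571 without a name (0.295 to 0.369% of counts) were left out.

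Genes were filtered with edgeR's filterByExpr, scaled by TMM factors and tested in edgeR 4.0.16 (R 4.3.3) over 14413 genes; CPM use the TMM factors, and the approximate SE is the size of the log2 fold change over √F. Alternatives used limma 3.58.1 (voom on counts, and its trended test on FPKM), DESeq2 1.42.0, other factors and filters, a replicate block and the omission of each heart. All members are named; those that passed, and of those that missed up to 2 per role with the smallest p, are given by heart, as are Cybb and Cd48, which were added after their values were seen, and 2 genes with the smallest p from each related list, except that 1 result is not reported here. The members and lists were chosen with earlier results of these data known. The methods were also tested on simulated data.

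Pearson's r of log2 CPM was 0.982 to 0.986 between young and 0.954 to 0.975 between old hearts, and counts of each pair differed beyond sampling noise (chi-square per degree of freedom 6.04 to 58.3). Places, exon lengths and overlaps come from GENCODE M21 (GRCm38). Exons of another gene overlap 14.5% of the exon length of Cd52, 7.0% of that of Ptpn6 and 11.1% of that of Ncf1 on the opposite strand; reads there cannot be told apart if strand was not used. Gm49368 overlaps 68.7% of Itgam on the same strand, but has no row in the count table.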

Additional observations from a re-analysis of the deposited data

How the results depend on the processing

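Depth limited the T cell genes most, since all 6 lay below 2 CPM. Under the 9 alternatives that kept all hearts, 14 to 19 members were higher and 0 lower, and 1615 to 2857 genes changed in all. Without 1 heart, 5 to 19 members were higher and 0 lower, and 539 to 5569 genes changed; the young hearts and old 3 lowered both counts, and without old 1 the count of all genes rose. The median log2 fold change of the members was 0.73 to 0.91 without 1 heart and 0.56 in log2(FPKM + 1), where the added 1 makes differences of low genes smaller by construction. Of 511 values of single members under an alternative, 8 changed sign, all of Cd48: −0.077 and −0.039 on FPKM with pseudocounts of 0.1 and 1, −0.042 in limma-voom, −0.054 with the replicate block, −0.019 with upper-quartile factors, −0.45 without old 1, −0.07 without young 2 and −0.14 without young 3 (0.29 at most, without old 2); the cause was not tested. The difference in the Itgam share ran from −5.69 percentage points without old 1 through −2.41 without young 1 to 5.45 without old 2. That in the Itgal share stayed below 0 (−11.7 to −8.22), and those of Itgax (5.48 to 14.3) and of Trbc1 (1.68 to 18.3) above 0. With the replicate block 15 members were higher and 1774 genes changed; besides Dock2, Itgax and Lat it ended no call of a member. Same-numbered hearts correlated at −0.0846, −0.0679 and 0.0247 in their deviations, and old 1 correlated best with young 3, so the number is not shown to pair them.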

Other observations

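Cytotoxic and neutrophil genes, all but Cd8a too low for the filter on counts, were picked after their values were seen. Gzmb, the protease granzyme B of cytotoxic lymphocytes, had 16, 8 and 13 reads in old 1, 2 and 3, against 2, 0 and 1 reads in young 1, 2 and 3. Gzma, of the same family, had 29, 7 and 15 reads in old hearts and 7, 6 and 1 reads in young hearts. Prf1, which encodes the pore protein perforin that acts with them, had 2, 0 and 2 reads in old hearts and 4, 5 and 4 reads in young hearts, so it did not share their direction. Cd8a, the co-receptor of cytotoxic T cells, had 18, 12 and 15 reads in old hearts and 9, 6 and 5 reads in young hearts; it had enough reads for the test and did not pass (1.18, edgeR adjusted p = 0.0954). Retnlg, a gene of mature neutrophils, had 13, 7 and 14 reads in old hearts and 2, 2 and 2 reads in young hearts. Cxcr2, a chemokine receptor of neutrophils, had 9, 3 and 4 reads in old hearts and 0, 1 and 1 reads in young hearts. Because they were picked by their values, no test is given for the genes under the filter.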
